A study of Mus musculus with 18 samples.

Results

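The genes described here are 10 that macrophage biologists use to recognise large peritoneal macrophages or that such cells carry at high levels: Adgre1, Icam2, Itgam, Selp, Naip1, Garnl3, Prg4, Cd9, Cd93 and F5. They were taken by symbol from a deposited table of 23511 mouse genes, and each symbol matched 1 row. Each gene is described in macrophages sorted from the peritoneal cavity by surface Tim-4, a phosphatidylserine receptor encoded by Timd4, in 18 bulk RNA libraries that fall into 6 groups of 3. The groups are Tim-4low and Tim-4high cells of mice carrying the MC38-LG tumor in the peritoneal cavity and given anti-Tim-4 on day 7, the same populations of tumor-bearing mice given an isotype antibody, and the same populations of mice with no tumor and no treatment. Tumor-bearing mice were harvested on day 10, and mice without a tumor were taken on the same day, per the labels' protocols. MC38 is a mouse colon carcinoma line. The sources used here give no strain, age or number of mice behind a library. The p-values therefore reflect only how far these libraries spread, which may be technical. Tim-4 defined the sort and was also the target of the antibody, and how the gate was set after anti-Tim-4 is not given in the sources used here.

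Macrophages of the mouse peritoneal cavity are mostly of a large, long-lived resident kind, beside a smaller kind that is refilled from blood monocytes. Large cells are recognised by high surface F4/80, CD11b and ICAM-2 (CD102), and depend on the transcription factor Gata6, whereas small cells carry more MHC class II and Ccr2. Among the 10 genes, Adgre1 encodes F4/80, an adhesion G protein-coupled receptor. Itgam encodes CD11b, the alpha chain that pairs with the beta chain from Itgb2 to form complement receptor 3. Icam2 encodes an adhesion ligand of the integrin LFA-1. Selp encodes P-selectin, best known from platelets and endothelium, where it binds the ligand encoded by Selplg. F5 encodes coagulation factor V, the cofactor of activated factor X, and Prg4 encodes lubricin, a secreted mucin-like lubricant of joints and serosal surfaces. Cd9 encodes a tetraspanin and Cd93 a transmembrane C-type lectin-like receptor. Naip1 encodes a sensor of bacterial secretion needle proteins that acts with Nlrc4 in an inflammasome. Garnl3 encodes a protein with a GTPase-activating Rap/RanGAP-like domain.

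On mm10, with GENCODE M21 ends, the members lie on 7 chromosomes. Adgre1 is at chr17:57358691-57483527, Icam2 at chr11:106377656-106388075, Itgam at chr7:128062640-128118491, Naip1 at chr13:100407764-100452869 and Cd9 at chr6:125460266-125494791. Garnl3 is at chr2:32986224-33131654 and Cd93 at chr2:148436640-148443563. Prg4 is at chr1:150449412-150466165. Selp (chr1:164115264-164150026) and F5 (chr1:164151838-164220277) are neighbours on the plus strand, with 1811 bases between the end of Selp and the start of F5. The RefSeq promoter table (GRCm38.p6) held 7 promoters for 6 of the 10 genes. Those of Selp, F5 and Itgam are printed because Selp and F5 are neighbours with the most alike profiles among the members, as given below, and Itgam has the smallest range over the groups. Each run is the 250 bases before the annotated start, 5′ to 3′ on the plus strand, with capitals marking GAGGAA or its reverse complement TTCCTC, the core letters bound by the macrophage factor PU.1.
Selp, chr1:164115014-164115263: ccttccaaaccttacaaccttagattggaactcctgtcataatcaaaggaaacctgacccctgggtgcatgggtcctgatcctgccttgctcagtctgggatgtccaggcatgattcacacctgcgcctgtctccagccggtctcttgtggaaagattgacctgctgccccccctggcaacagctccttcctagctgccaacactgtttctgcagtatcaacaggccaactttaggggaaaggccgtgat
F5, chr1:164151585-164151834: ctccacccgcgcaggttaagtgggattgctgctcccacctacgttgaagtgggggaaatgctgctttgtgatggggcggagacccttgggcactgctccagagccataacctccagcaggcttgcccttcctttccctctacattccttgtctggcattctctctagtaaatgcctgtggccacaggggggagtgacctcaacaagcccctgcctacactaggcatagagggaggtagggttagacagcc
Itgam, chr7:128062390-128062639: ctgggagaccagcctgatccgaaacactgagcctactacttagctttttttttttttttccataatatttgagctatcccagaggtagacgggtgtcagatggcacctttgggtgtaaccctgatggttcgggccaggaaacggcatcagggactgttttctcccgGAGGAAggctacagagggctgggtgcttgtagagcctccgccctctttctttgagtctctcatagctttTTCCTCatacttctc
Only the Itgam window of the 7 held GAGGAA on either strand, and it held it once on each. Of 32851 promoter windows of the same length, 23.25% held that run. The letters GATAA, the core bound by GATA factors, were in none of the 7 windows on either strand and in 22.58% of all. Likewise AP-1 letters TGACTCA were in none of the 7 and in 4.463% of all, and E-box letters CACGTG were in none and in 6.021%. The longer forms AGATAA and GAGGAAGT, which contain the cores just given, were in none of the 7 and in 9.988% and 2.441% of all. A match or its absence describes these windows only.

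Library totals lay between 24530070 and 34110392 estimated counts, and levels are given as CPM, the count divided by the TMM-scaled library size and set to a fixed total. Timd4 in libraries 1 to 3 was at 28.9, 23.1 and 11.9 CPM in Tim-4low libraries and 219, 173 and 169 CPM in Tim-4high cells with anti-Tim-4. With isotype it was at 14.5, 10.99 and 75.4 CPM in Tim-4low against 319, 294 and 280 CPM in Tim-4high cells, and without a tumor at 108, 9.51 and 9.12 against 885, 680 and 622 CPM. The populations did not overlap in any condition, which checks the labels and is no finding, since Tim-4 set the sort. With anti-Tim-4 the Timd4 difference did not pass in the fit described below (log2 fold change -3.13 ± 0.852 SE, adjusted p = 0.088), which uses the spread of all groups. It passed with a block on library number (adjusted p 0.0117) and in a fit of the compared groups alone (adjusted p 0.00229). Macrophage-defining genes (8 of 8 in the table) summed to at least 11640 CPM in every library. Their summed range was 11640 to 16970 CPM in Tim-4low cells, against 14290 to 16580 CPM in Tim-4high cells, with anti-Tim-4, 14140 to 15210 and 13150 to 13940 CPM with isotype, and 24840 to 28330 and 32260 to 41850 CPM without a tumor. Most of these sums was Lyz2, with means of 31700 CPM in Tim-4high and 22240 CPM in Tim-4low cells without a tumor. With isotype its means were 7408 and 9350 CPM. Cd68, Fcgr1, Spi1 and C1qa had lower means without a tumor than with isotype in both populations, and Csf1r had higher ones. Mertk and Cd14 differed in direction between the populations. Selp and Icam2 are also endothelial genes and Selp a platelet gene. Endothelial genes (6 of 7 in the table) summed to 48.1 CPM or less in every library, most of it Pecam1, while Cdh5 averaged 1.72 CPM or less and Tek and Emcn were near 0 in every group. The megakaryocyte gene Itga2b averaged 0.721 CPM or less.

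On the length-scaled TPM scale, the genes ranged widely. In Tim-4high cells without a tumor, Prg4 averaged 6743 ± 952 TPM (SD, n = 3) and ranked 7th of 22939 genes. Itgam reached 2985 ± 81.7 TPM and Adgre1 2154 ± 105 TPM in isotype Tim-4high cells. At the other end, Naip1 lay between 19.4 and 56.8 TPM over the 6 group means. The members therefore range from among the most abundant transcripts of these cells to moderate ones. On the CPM scale, the ratio of the highest to the lowest group mean was 10.23 for Prg4, 8.10 for Garnl3 and 7.43 for Cd9, and 2.70 for Itgam and 2.74 for Naip1. Tim-4high cells held the highest group mean of all 10 genes, under isotype or without a tumor. Tim-4low cells of isotype or untreated mice held the lowest of all 10.

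**Figure D1:**
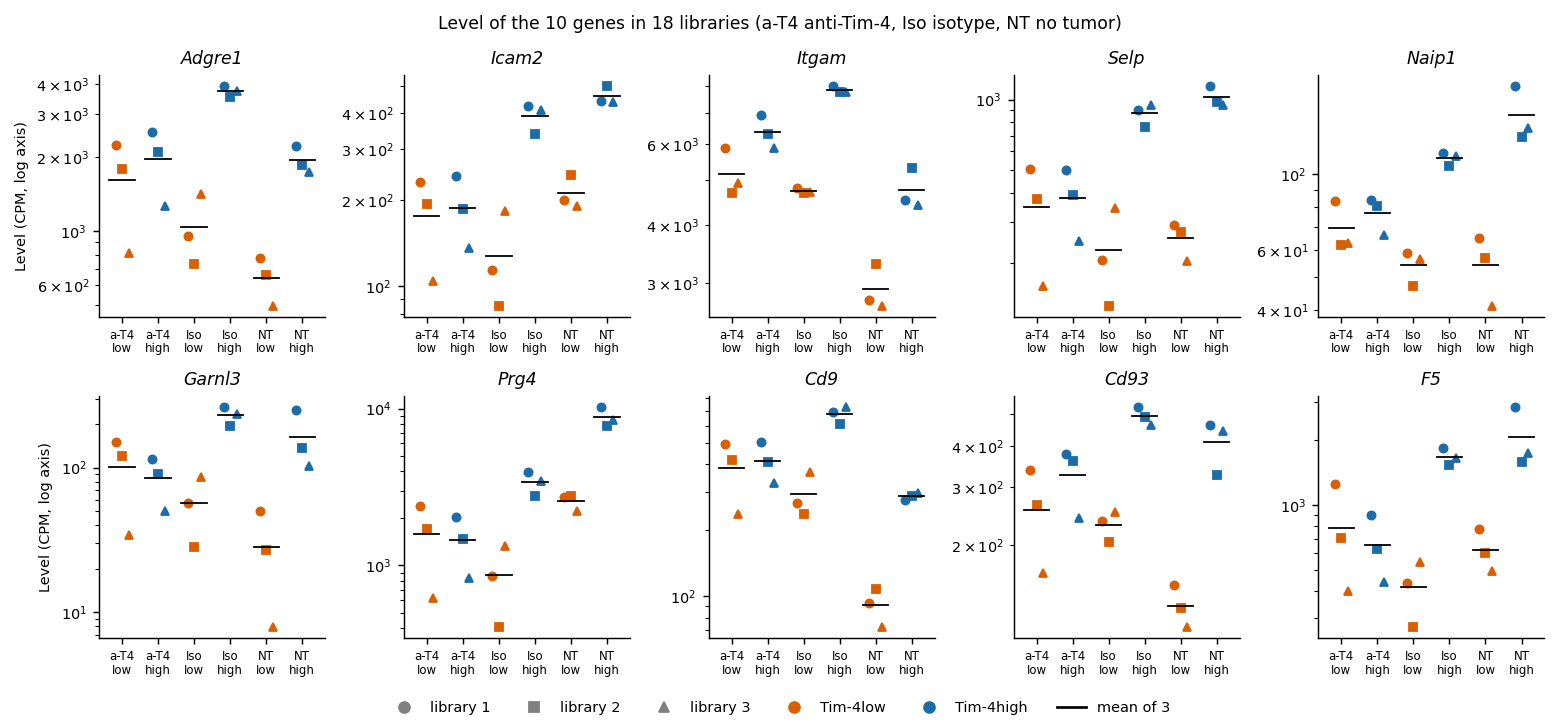
Level of each of the 10 genes in CPM on a log axis, by group, with 1 point per library (shape gives its number) and a bar at the mean of 3. In isotype and no-tumor mice every Tim-4low point lies below every Tim-4high point for all 10 genes, while after anti-Tim-4 the populations overlap for all 10.

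In mice without a tumor and in isotype-treated tumor mice, all 10 genes were lower in Tim-4low than in Tim-4high macrophages. Without a tumor the fall ran from 1.64-fold for Itgam to 5.74-fold for Garnl3, and with isotype from 1.65-fold for Itgam to 4.05-fold for Garnl3. F4/80, CD11b and ICAM-2 transcripts, the usual surface markers, fell together with the secreted Prg4 and F5 and with the inflammasome sensor Naip1. A gene was called when the adjusted p of edgeR's quasi-likelihood test (Benjamini-Hochberg over 16609 genes, 1 fit to all 6 groups) was under 0.05. All 10 members were called lower without a tumor, where 24.6% of tested genes were called (11.8% lower and 12.8% higher). All 10 were called lower with isotype, where 24.1% were called (12.9% lower and 11.3% higher). In each condition the populations did not overlap for any of the 10, against 17.2% of all genes with every Tim-4low library below every Tim-4high one without a tumor and 21.9% with isotype. In the other direction the shares were 17.7% and 21.3%. The median log2 fold change of the members was -1.65 without a tumor, beside 0.0156 over all tested genes, and -1.74 with isotype, beside 0.011. In bulk RNA, fewer cells of a type and less RNA per cell cannot be told apart.

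Among the surface markers, Adgre1 was at 959, 734 and 1420 CPM in isotype Tim-4low libraries 1 to 3, against 3933, 3541 and 3744 CPM in isotype Tim-4high ones. Without a tumor it was at 776, 662 and 494 CPM in Tim-4low against 2236, 1863 and 1748 CPM in Tim-4high libraries. The populations were well apart in both conditions (log2 fold change -1.85 ± 0.333 SE, adjusted p = 0.00108, with isotype and -1.60 ± 0.331, adjusted p = 0.00225, without a tumor, edgeR). Icam2 was at 114, 85.3 and 183 CPM in isotype Tim-4low and 426, 340.0 and 410 CPM in isotype Tim-4high libraries. Without a tumor it was at 199, 244 and 191 CPM in Tim-4low libraries and 443, 500.3 and 438 CPM in Tim-4high libraries. Here the lowest Tim-4high library still stood clear of the highest Tim-4low one. The fitted log2 fold change of Icam2 was -1.62 ± 0.290 with isotype (adjusted p = 0.00102) and -1.12 ± 0.286 without a tumor (adjusted p = 0.00888, edgeR).

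Itgam had the smallest fall of the 10 in both conditions. It was at 4819, 4690 and 4730 CPM in isotype Tim-4low against 8024, 7764 and 7766 CPM in isotype Tim-4high libraries. Without a tumor it was at 2749, 3294 and 2672 against 4535, 5324 and 4432 CPM. The log2 fold changes, -0.73 ± 0.108 with isotype (adjusted p = 0.00029) and -0.71 ± 0.108 without a tumor (adjusted p = 0.000198, edgeR), were close to each other. Within library numbers the log2 ratio of Itgam lay between -0.736 and -0.693 in all 6 pairs of those conditions.

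Prg4, Selp and F5, genes of secreted or vascular proteins, had larger fitted falls than Itgam. Genes were not tested against each other. Prg4 was at 854, 405 and 1338 CPM in isotype Tim-4low against 3918, 2792 and 3476 CPM in isotype Tim-4high libraries, and at 2745, 2776 and 2224 against 10280, 7774 and 8497 CPM without a tumor. Its fall was 3.92-fold with isotype and 3.43-fold without a tumor. Selp, the P-selectin gene, was at 206, 131 and 343 CPM in isotype Tim-4low against 904, 765 and 950.1 CPM in isotype Tim-4high libraries. Without a tumor it was at 292, 272 and 203 against 1148, 979.8 and 947 CPM. It fell 3.85-fold with isotype and 4.01-fold without a tumor. F5, the factor V gene next to Selp, was at 436, 273 and 546 against 1840, 1541 and 1658 CPM with isotype, and 773, 602 and 495 against 2863, 1592 and 1749 CPM without a tumor, Tim-4low before Tim-4high in each. It fell 4.01-fold and 3.32-fold. Adjusted p-values of these 3 genes lay between 0.0012 and 0.00852 over both conditions (edgeR).

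Of the other surface genes, Cd9 fell 2.32-fold with isotype and 3.14-fold without a tumor, and Cd93 fell 2.14-fold and 3.13-fold. Naip1 fell 2.05-fold with isotype and 2.74-fold without a tumor, with the smallest adjusted p of the 10 without a tumor (2.39e-05, edgeR). Naip1 belongs to a family of closely similar genes on chromosome 13, so its count is uncertain where reads are shared. Garnl3 was at 56.5, 28.2 and 85.7 CPM in isotype Tim-4low against 264, 194 and 233 CPM in isotype Tim-4high libraries, and at 50.4, 27.0 and 7.88 CPM against 250.3, 136 and 102 CPM without a tumor. Leaving out no-tumor Tim-4low library 1 moved its log2 fold change to -3.23, against -2.52 with all libraries. With isotype, its call (-2.02 ± 0.617, adjusted p = 0.0264) was lost in 4 of 6 omissions, of Tim-4low library 1 or 2 or Tim-4high library 1 or 3 (adjusted p of 0.0771, 0.112, 0.0715 and 0.0522).

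Libraries within these groups differed in step across the members. Isotype Tim-4low library 3 was highest of its group for 8 of 10 genes and library 2 lowest for 10. In isotype library 3 of the Tim-4low cells Timd4 also stood above the other libraries of its group, as given above, and T cell, B cell and neutrophil genes were high in both libraries 3. T cell genes (8 of 8 in the table) summed to 97.8 CPM there against 16.2 and 20.3 CPM in the other isotype Tim-4low libraries. Without both isotype libraries 3, all 10 members were still called lower with isotype. In no-tumor libraries 1, B cell genes (7 of 7) summed to 1918 CPM in Tim-4low libraries and 557 CPM in Tim-4high cells, against 143 to 253 CPM in the other no-tumor libraries, and without both libraries 1 all 10 were still called lower. The platelet list (7 of 8 in the table) moved with the members, at 23.99 to 49.8 CPM in isotype Tim-4low against 116 to 146 CPM in isotype Tim-4high libraries and at 146 to 171 against 427 to 528 CPM without a tumor. Nearly all of it was Pf4, and the other 6 genes of the list each averaged under 1 CPM in every group. The summed level of small or recruited macrophage genes (11 of 11 in the table) went the other way. With isotype the sums were 17270 to 18320 CPM in Tim-4low against 12280 to 15000 CPM in Tim-4high libraries. Without a tumor they were 20940 to 28840 against 1752 to 5815 CPM. Of the 11 genes, 3 were called higher and 0 lower with isotype (median log2 fold change 0.382). Without a tumor 10 were called higher and 0 lower (median 2.91). The part of these cells in the members' fall was not tested.

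After anti-Tim-4 a separation of the populations was not detected in the members. None of the 10 members was called between Tim-4low and Tim-4high cells by edgeR's quasi-likelihood test, where 1.39% of tested genes were called (0.849% lower and 0.542% higher). The populations overlapped for all 10, and of all genes 11.2% had every Tim-4low library lower and 10.8% every one higher. By an unadjusted p under 0.05, 1 of the 10 (Itgam) passed, beside 2221 of 16609 tested genes. DESeq2 called none of the 10, beside 528 of 16167 genes. Fitted log2 fold changes ran from -0.35 for Cd93 to 0.26 for F5, with 7 negative and 3 positive, and their median was -0.117 beside -0.00405 over all tested genes. Adgre1 was at 2256, 1794 and 816 CPM in Tim-4low libraries 1 to 3 and at 2544, 2108 and 1266 CPM in Tim-4high ones. Icam2 was at 231, 194 and 104 CPM in Tim-4low libraries and 241, 186 and 136 CPM in Tim-4high libraries. In Adgre1 and Icam2 the spread within a population was larger than the distance between populations. Within library numbers, however, Adgre1, Itgam, Naip1 and Cd93 were lower in Tim-4low cells in every pair, and the other members were not. For Adgre1 the log2 ratios were -0.173, -0.232 and -0.633, and its adjusted p with library number as a block was 0.182 (edgeR). For Cd93 they were -0.161, -0.443 and -0.559, with a block adjusted p of 0.064. Prg4 was at 2401, 1718 and 617 CPM in Tim-4low libraries and 2048, 1473 and 826 CPM in Tim-4high cells, with a fitted log2 fold change of 0.12 ± 0.437. Itgam was nearest to a difference (-0.30 ± 0.108, adjusted p = 0.217), and it was called when library number was added as a block (-0.30, adjusted p = 0.0157). The populations still differed in some other genes. Of 11 genes of small or recruited macrophages, 3 were called higher in Tim-4low cells and 0 lower. Their sums were 14590 to 18280 CPM in Tim-4low against 13400 to 15410 CPM in Tim-4high libraries.

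The 3 anti-Tim-4 libraries of a population differed from each other in step across the members. Library 1 had the highest level of all 10 members in both populations. Library 3 had the lowest level of 10 members in Tim-4high and of 8 in Tim-4low cells, and Tim-4low library 2 had the lowest of the other 2. For Garnl3 library 1 was 4.45 times library 3 in Tim-4low and 2.32 times in Tim-4high cells, whereas for Itgam the ratios were 1.19 and 1.18. The median coefficient of variation of the members was 41.2% in Tim-4low and 30.5% in Tim-4high cells after anti-Tim-4. It was 33.3% and 9.06% with isotype, and 18.9% and 13.8% without a tumor. Within library numbers, the median log2 ratio of Tim-4low over Tim-4high across the members was -0.017, -0.0093 and -0.44 in anti-Tim-4 numbers 1 to 3, with 4, 5 and 0 members higher in Tim-4low. It was -1.97, -2.13 and -1.27 with isotype and -1.59, -1.41 and -1.88 without a tumor, with 0 members higher in Tim-4low in any of those 6 pairs.

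**Figure D2:**
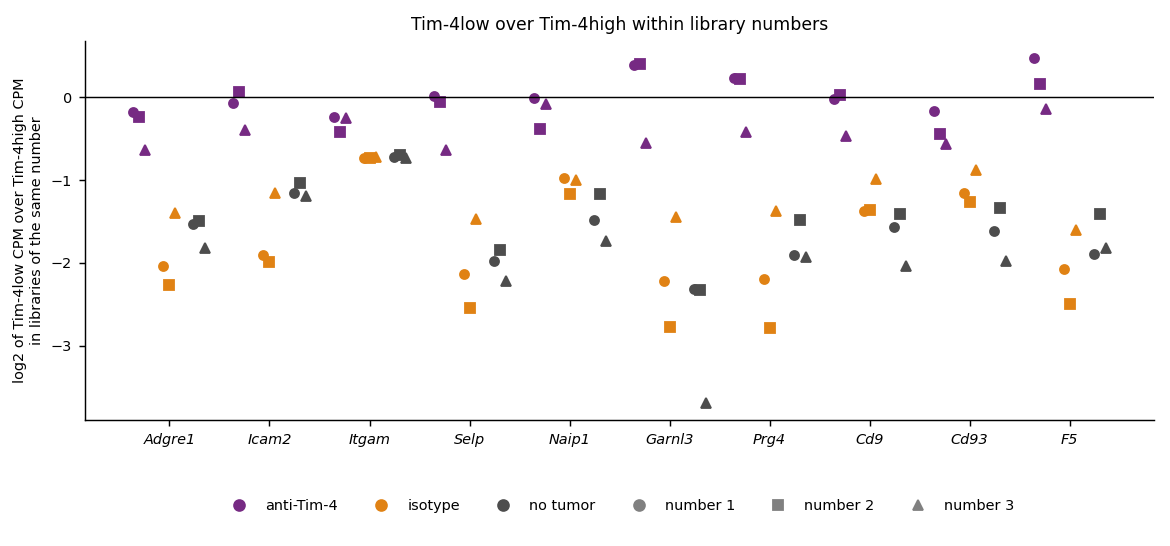
The log2 ratio of Tim-4low over Tim-4high CPM in libraries of the same number, for each gene and condition. Anti-Tim-4 points of numbers 1 and 2 lie on both sides of 0 (medians -0.017 and -0.0093), while all 10 points of number 3 lie below 0 (median -0.44), as does every isotype and no-tumor point.

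The monocyte list (9 of 9 in the table) moved with the members over the anti-Tim-4 libraries. Its sum was 11340, 8649 and 2647 CPM in Tim-4low libraries 1 to 3 and 12020, 9430 and 3954 CPM in Tim-4high ones. Most of it was Chil3, at 10460, 7601 and 1512 CPM in Tim-4low libraries and 11290, 8451 and 3078 CPM in Tim-4high libraries. Ly6c2, a defining monocyte gene, was highest in library 3, at 62.0, 68.4 and 108 CPM in Tim-4low libraries and 37.6, 31.5 and 45.9 CPM in Tim-4high cells. The part of these genes in the members' spread was not tested.

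**Figure D3:**
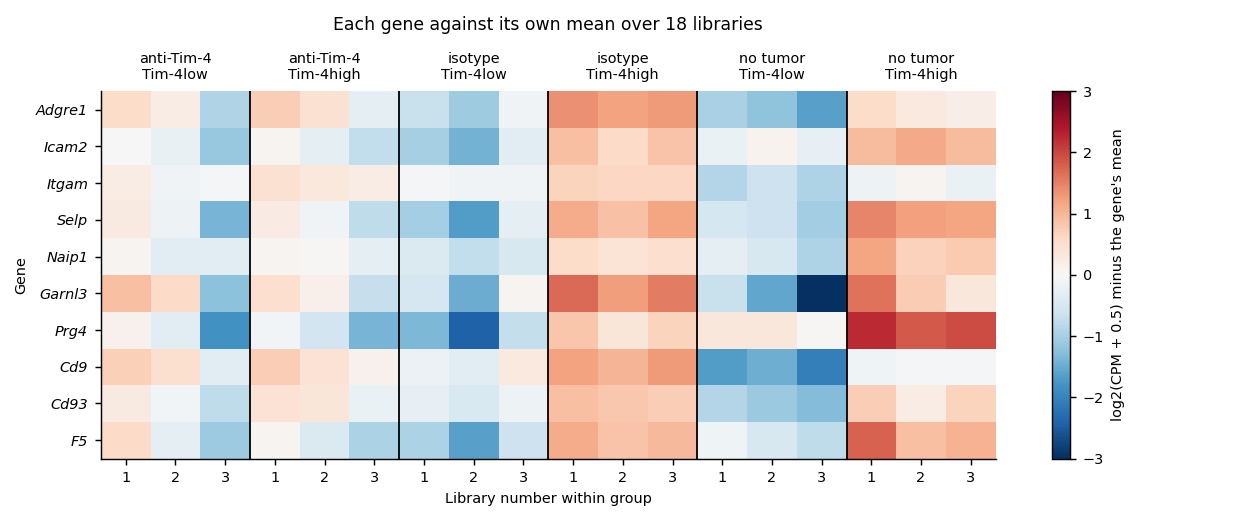
Colour gives log2(CPM + 0.5) of each gene minus its own mean over 18 libraries, with groups side by side and library numbers below. In both anti-Tim-4 groups the colours run together down the column, with library 1 highest for all 10 genes.

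In Tim-4high macrophages, all 10 genes were lower after anti-Tim-4 than with isotype, with no overlap between the groups. The fitted falls ran from 1.23-fold for Itgam to 2.70-fold for Garnl3, but only 2 of the 10, Icam2 and F5, passed the test in the fit to all groups, where 7.97% of tested genes were called (3.67% lower and 4.3% higher). F5 was at 902, 628 and 440 CPM in anti-Tim-4 Tim-4high libraries against 1840, 1541 and 1658 CPM in isotype ones (log2 fold change -1.35 ± 0.373, adjusted p = 0.0388, edgeR). Icam2 was at 241, 186 and 136 CPM with anti-Tim-4 against 426, 340.0 and 410 CPM with isotype (-1.06 ± 0.286, adjusted p = 0.0361, edgeR). Each anti-Tim-4 library of both genes stood below each isotype library. The same held for the other 8 members, against 19.3% of all genes with every anti-Tim-4 library below every isotype one and 19.9% above. Adgre1 was at 2544, 2108 and 1266 CPM with anti-Tim-4 against 3933, 3541 and 3744 CPM with isotype (-0.92 ± 0.326, adjusted p = 0.0885). Prg4 was at 2048, 1473 and 826 against 3918, 2792 and 3476 CPM (-1.23 ± 0.443, adjusted p = 0.0953), and Itgam at 6929, 6290 and 5862 against 8024, 7764 and 7766 CPM (-0.30 ± 0.108, adjusted p = 0.0906). The median log2 fold change was -0.992 for the members and -0.00452 over all tested genes. Some markers of other cells were also lower in these anti-Tim-4 libraries. Of 5 fibroblast genes tested 4 fell and 0 rose (median -2.03), with a summed level of 3.88 to 5.86 CPM with anti-Tim-4 against 8.47 to 41.3 CPM with isotype. Of 8 neutrophil genes 2 fell and 0 rose (median -1.98), with sums of 53.8 to 66.1 CPM with anti-Tim-4 against 95.7 to 369 CPM with isotype. Their part in the members' values was not tested.

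How many members passed here depended on the test and on single libraries. All 10 had an unadjusted p under 0.05 in the fit to all groups, beside 4329 of 16609 tested genes. A fit of these 6 libraries alone, which leaves out the spread of the other groups, called 10, beside 2990 of 14745 genes. DESeq2 on all groups called 9, beside 2076 of 15711 genes. The authors' deposited table lists all 10 with an FDR of at most 0.00873 and signed folds from -1.235 for Itgam to -2.706 for Garnl3. Their other table, of Tim-4low and Tim-4high cells without a tumor, gives the 10 positive folds, from 1.647 for Itgam to 5.749 for Garnl3. All 10 were lower in Tim-4low cells there by the counts, so the sign was not read as a direction. In the fit to all groups the call of Icam2 was lost in 4 of 6 omissions and that of F5 in 5. Without anti-Tim-4 library 2 or 3 or isotype library 1 or 3, the adjusted p of Icam2 was 0.0994, 0.187, 0.119 and 0.105, and that of F5 was 0.11, 0.191, 0.119 and 0.0988. F5 was also lost without isotype library 2 (0.0541). Without both populations' anti-Tim-4 libraries 3 no member was called, beside 257 of 17098 genes. Without both isotype libraries 3 none was called either, beside 210 of 16941 genes, so calls fell over all genes too. Without both anti-Tim-4 libraries 1 the count was 4, beside 1126 of 17096 genes.

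In Tim-4low macrophages none of the 10 was called between anti-Tim-4 and isotype, where edgeR called 0.325% of tested genes (0.223% higher and 0.102% lower). All 10 fitted values were above 0, between 0.12 for Itgam and 0.91 for F5. By an unadjusted p under 0.05, 1 passed (F5), beside 2047 of 16609 tested genes. DESeq2 called 0 members, beside 282 of 14345 genes. Naip1 alone did not overlap, at 83.3, 62.0 and 62.8 CPM with anti-Tim-4 against 59.0, 47.1 and 56.6 CPM with isotype, where 8.01% of all genes had every anti-Tim-4 library higher and 9.95% every one lower. F5 was at 1255, 702 and 400 CPM with anti-Tim-4 and 436, 273 and 546 CPM with isotype (0.91 ± 0.369, adjusted p = 0.338), so its libraries overlapped. Adgre1 overlapped as well, at 2256, 1794 and 816 CPM with anti-Tim-4 against 959, 734 and 1420 CPM with isotype.

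**Figure D4:**
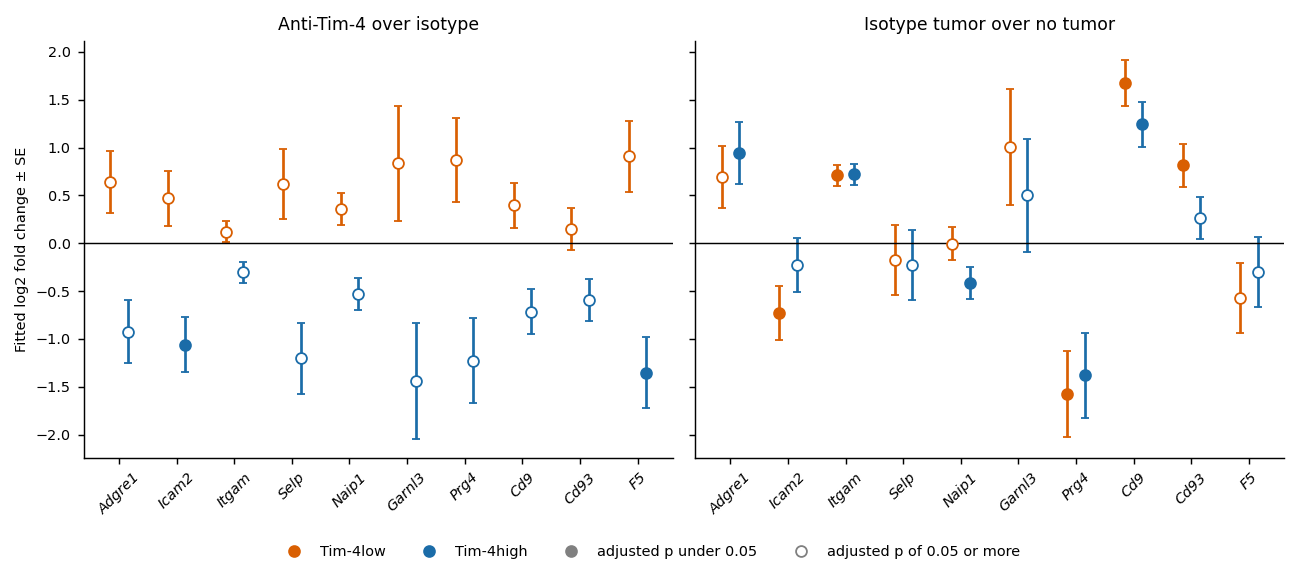
Fitted log2 fold change ± SE of each gene for anti-Tim-4 over isotype and for isotype tumor over no tumor, with Tim-4low left of Tim-4high and filled points for an adjusted p under 0.05 (edgeR). For the antibody all 10 Tim-4low values lie above 0 and all 10 Tim-4high values below 0, with 2 Tim-4high values filled, whereas for the tumor the genes split.

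Whether the antibody's effect differed between the populations was tested as an interaction, where a positive value means that Tim-4low rose relative to Tim-4high. All 10 values were positive, from 0.42 ± 0.152 for Itgam to 2.27 ± 0.853 for Garnl3, with a median of 1.55 beside -0.00535 over all tested genes. In the fit to all groups 1 member passed, F5 (2.26 ± 0.525, adjusted p = 0.0373), where 2.93% of tested genes were called (1.67% positive and 1.26% negative). Icam2 was next (1.53 ± 0.403, adjusted p = 0.0524). When library number was added as a block, which pairs the populations within a condition, all 10 passed, beside 2608 of 16609 tested genes. Adjusted p-values of that block fit ran from 0.000135 for F5 to 0.0107 for Cd93. DESeq2 called 8 members, beside 1264 of 14345 genes. The F5 call was lost in 8 of 12 omissions, with the largest adjusted p without anti-Tim-4 Tim-4low library 1 (0.119). The others were those without anti-Tim-4 Tim-4low library 2, Tim-4high libraries 2 and 3, isotype Tim-4low libraries 1 and 2 and isotype Tim-4high libraries 1 and 3 (0.0616 to 0.118). Without anti-Tim-4 Tim-4low library 3, 9 members passed, beside 1418 of 17107 genes. Without both isotype libraries 3 no member did, beside 9 of 16941 genes.

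The tumor split the members. Comparing isotype-treated tumor mice with mice without a tumor, in which antibody and tumor differ together, Cd9 and Itgam were higher and Prg4 lower in both populations. In Tim-4high cells 5 of 10 passed the test, 3 up and 2 down, where 51.5% of tested genes were called (27.3% higher and 24.1% lower). In Tim-4low cells 5 of 10 passed, 3 up and 2 down, where 49.8% were called (25.2% higher and 24.6% lower). A share of 5 in 10 is thus near that of all genes. The groups did not overlap for 6 members in Tim-4high cells, 3 higher and 3 lower (29.5% and 28.1% of all genes), and for 5 in Tim-4low cells, 3 higher and 2 lower (29.1% and 28.9%).

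Cd9 had the largest rise. It was at 267, 238 and 371 CPM in isotype Tim-4low against 93.4, 108 and 72.5 CPM in no-tumor Tim-4low libraries (1.68 ± 0.241, adjusted p = 3.93e-05, edgeR). In Tim-4high cells it was at 693, 611 and 732 CPM with isotype against 276, 288 and 296 CPM without a tumor (1.24 ± 0.237, adjusted p = 0.00044). Isotype Tim-4low cells thus reached the Cd9 level of no-tumor Tim-4high cells, and those groups overlapped. Itgam rose 1.63-fold in Tim-4low and 1.65-fold in Tim-4high cells (0.71 ± 0.108, adjusted p = 6.99e-05, and 0.72 ± 0.108, adjusted p = 5.32e-05). Adgre1 rose 1.92-fold in Tim-4high cells (0.94 ± 0.326, adjusted p = 0.0244). In Tim-4low cells its value was 0.69 ± 0.324 (adjusted p = 0.0908), and the 3 isotype libraries there, at 959, 734 and 1420 CPM, overlapped the no-tumor ones at 776, 662 and 494 CPM. Cd93 rose 1.76-fold in Tim-4low cells (0.81 ± 0.222, adjusted p = 0.00662), and its value in Tim-4high cells was 0.26 ± 0.220 (adjusted p = 0.338).

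Prg4, per length the most abundant of the 10 without a tumor, fell 2.98-fold in Tim-4low and 2.61-fold in Tim-4high cells with isotype (-1.58 ± 0.447, adjusted p = 0.00838, and -1.38 ± 0.445, adjusted p = 0.0166, edgeR). Per library it was at 854, 405 and 1338 CPM against 2745, 2776 and 2224 CPM in Tim-4low cells. The Tim-4high values of 3918, 2792 and 3476 CPM with isotype stood against 10280, 7774 and 8497 CPM without a tumor. Icam2 fell 1.66-fold in Tim-4low cells (-0.73 ± 0.285, adjusted p = 0.0439) and Naip1 1.34-fold in Tim-4high cells (-0.42 ± 0.169, adjusted p = 0.049). Each of these 2 calls held in 1 of 6 omissions. The adjusted p of Icam2 was 0.125 and 0.185 without isotype libraries 1 and 2 and 0.0647, 0.135 and 0.057 without no-tumor libraries 1, 2 and 3. That of Naip1 was 0.0726, 0.118 and 0.0838 without isotype libraries 1, 2 and 3 and 0.217 and 0.0538 without no-tumor libraries 1 and 3. The Adgre1 call in Tim-4high cells was lost without isotype library 1 or 3 or no-tumor library 2 or 3 (0.0585, 0.0501, 0.0613 and 0.0761), and that of Prg4 without isotype Tim-4high library 2 (0.0602). Garnl3 in Tim-4low cells passed without no-tumor library 1 (1.72, adjusted p = 0.0461) and had 1.00 ± 0.609 (adjusted p = 0.185) with all libraries.

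No member's tumor effect was found to differ between the populations. In that interaction edgeR called 0 of 10 members, where 3.53% of tested genes were called (1.32% positive and 2.21% negative). By an unadjusted p under 0.05 none of the 10 passed, beside 2707 of 16609 tested genes. DESeq2 called none of them, beside 1038 of 14345 genes. Values lay between -0.50 ± 0.400 for Icam2 and 0.55 ± 0.312 for Cd93. The Cd93 difference, called in 1 population and not in the other, had an adjusted p of 0.417. The isotype libraries enter the antibody comparisons as well as these, so values of both kinds for a gene are not independent. In the same libraries some markers of other cells were higher in tumor mice and others lower. Fibroblast genes (6 of 6 in the table) summed to 19.6 to 69.0 CPM in isotype Tim-4low against 0.193 to 0.751 CPM in no-tumor Tim-4low libraries, and to 8.47 to 41.3 against 0.316 to 0.523 CPM in Tim-4high ones. Monocyte genes summed to 3331 to 4726 against 1172 to 1410 CPM in Tim-4low cells and to 7811 to 8116 against 514 to 1142 CPM in Tim-4high cells. Most of the isotype sums was Chil3, at a mean of 2609 against 25.6 CPM in Tim-4low and 7285 against 9.41 CPM in Tim-4high cells. Of 9 monocyte genes tested, 7 were called higher and 2 lower in Tim-4low cells, and 6 higher and 1 lower in Tim-4high cells. B cell genes went the other way, with 7 of 7 lower in each population (medians -4.29 in Tim-4low and -3.4 in Tim-4high cells). Of 5 mast cell genes tested 4 were lower in each (medians -4.62 and -3.94). The part of these cells in the members' changes was not tested.

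The binding partners and relatives of the members, a list of 34 genes of which 30 were tested, moved in both directions. In the list 13 fell and 2 rose in Tim-4low against Tim-4high cells with isotype, 12 fell and 4 rose without a tumor, and 3 fell and 0 rose with anti-Tim-4, with medians of -0.229, -0.24 and -0.0818. With library number as a block, 6 fell and 2 rose with anti-Tim-4, where 660 of 16609 tested genes fell and 522 rose. Itgb2, the partner chain of Itgam, went with it. It fell in Tim-4low cells with isotype (-0.67 ± 0.128, adjusted p = 0.00163) and without a tumor (-0.84 ± 0.128, adjusted p = 0.000219), and its value with anti-Tim-4 was -0.12 ± 0.128 (adjusted p = 0.743, edgeR). It rose with the tumor in both populations (1.08 ± 0.129 in Tim-4low, adjusted p = 7.24e-06, and 0.90 ± 0.129 in Tim-4high cells, adjusted p = 3.17e-05). Selplg, the P-selectin ligand gene, fell in Tim-4low cells 1.84-fold with isotype and 1.52-fold without a tumor, and its antibody interaction passed (0.85 ± 0.186, adjusted p = 0.0329). That call was kept in 4 of 12 omissions. It was lost without library 1 or 2 of isotype or anti-Tim-4 Tim-4low cells, isotype Tim-4high library 1 or 3 or anti-Tim-4 Tim-4high library 2 or 3 (adjusted p 0.0594 to 0.113). F10, the factor X gene, fell 1.62-fold and 1.39-fold in the same conditions and rose with the tumor (1.03 ± 0.130 in Tim-4low, adjusted p = 1.17e-05, and 1.25 ± 0.131 in Tim-4high cells, adjusted p = 1.66e-06, edgeR), while F5 values for the tumor were -0.57 ± 0.368 and -0.30 ± 0.366 and did not pass. The F10 call without a tumor was lost in 3 of 6 omissions, of Tim-4low library 1 or 3 or Tim-4high library 2 (adjusted p of 0.052, 0.0559 and 0.069).

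The other Naip genes followed Naip1 between populations with smaller values. With isotype Naip5 had -0.67 ± 0.137, Naip6 -0.51 ± 0.170 and Naip2 -0.40 ± 0.0855 as log2 fold change, and all 3 were called. The Naip6 call was kept in 1 of 6 omissions, that of Tim-4low library 1, and had an adjusted p of 0.0602 to 0.14 in the others. Without a tumor they had -0.76 ± 0.137, -0.81 ± 0.170 and -0.36 ± 0.0855, and all 3 were called. Their partner Nlrc4 was not called between populations in any condition (0.21 ± 0.106 with isotype, adjusted p = 0.178, and -0.21 ± 0.103 without a tumor, adjusted p = 0.152, edgeR). With library number as a block it passed without a tumor (adjusted p = 0.0307) and with anti-Tim-4 (0.29, adjusted p = 0.0378). Nlrc4 fell with the tumor 1.99-fold in Tim-4low and 2.67-fold in Tim-4high cells. The 3 relatives called lower in Tim-4low cells after anti-Tim-4 were C1qa (-0.51 ± 0.0916, adjusted p = 0.0135) and C1qc (-0.54 ± 0.0963, adjusted p = 0.013, edgeR), which encode chains of complement C1q and were chosen after their values were seen, and Cd63. The C1qa and C1qc calls were each lost without Tim-4high library 1 or 2 or Tim-4low library 2 (adjusted p 0.0547 to 0.0791). Cd63, a tetraspanin gene like Cd9, was the one past 2-fold, at 24.4, 28.5 and 17.6 CPM in Tim-4low against 66.0, 85.2 and 61.1 CPM in Tim-4high libraries (-1.59 ± 0.284, adjusted p = 0.0131, edgeR). Its call was lost without Tim-4high library 2 or Tim-4low library 2 or 3 (adjusted p of 0.0832, 0.0506 and 0.0558). Cd9 in the same libraries had -0.11 ± 0.234.

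Other large peritoneal macrophage genes, a list of 28 that were all tested, fell for the most part with isotype and without a tumor. In Tim-4low against Tim-4high cells 23 fell and 1 rose with isotype (Tmem37) and 22 fell and 0 rose without a tumor, with medians of -1.50 and -1.46. With anti-Tim-4, 1 fell (Cxcl13, -2.22 ± 0.453, adjusted p = 0.026) and the median was -0.189. The Cxcl13 call was kept in 1 of 6 omissions, that of Tim-4high library 3, and had an adjusted p of 0.0562 to 0.132 in the others. With library number as a block, 6 of the 28 fell and 0 rose with anti-Tim-4, where 660 of 16609 tested genes fell and 522 rose. The 6 were Cxcl13 (adjusted p = 0.00138), Saa3 (0.00265), Vsig4 (0.00621), Padi4 (0.0115), Marco (0.0155) and Fcna (0.0279). Gata6, the transcription factor these cells depend on, was at 111, 82.3 and 27.2 CPM in Tim-4low libraries and 98.9, 77.3 and 43.8 CPM in Tim-4high libraries with anti-Tim-4. With isotype it was at 42.6, 26.1 and 69.7 against 212, 168 and 207 CPM (-2.08 ± 0.464, adjusted p = 0.00434), and without a tumor at 55.1, 33.9 and 25.9 against 202, 130 and 129 CPM (-2.01 ± 0.464, adjusted p = 0.00478, edgeR). Its antibody interaction, 2.09 ± 0.638, had an adjusted p of 0.082, and 0.000546 with library number as a block. The list and the members were chosen with earlier results of these data known, so their shared direction is a description.

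Of the genes outside the 10, the nearest in profile were found by the root-mean-square difference of log2(CPM + 0.5), each gene centred on its own mean, over 18 libraries and 8385 genes with a mean of at least 10 CPM. Near to Adgre1 were Myo6 (0.159) and Arhgef5 (0.228), against a median of 0.921 over the 8385. Nearest to Icam2 were Ryk (0.166), Sorbs3 (0.180) and Rgl3 (0.192), against a median of 0.805. The single nearest genes were Lman1 for Itgam (0.0961), Bmpr1a for Selp (0.175), P2rx1 for F5 (0.222), Afap1l1 for Prg4 (0.275), Emilin1 for Cd9 (0.168), Man2a1 for Cd93 (0.162), Arsg for Naip1 (0.164) and Vmn2r26 for Garnl3 (0.282). Among the members themselves the closest were the neighbours Selp and F5 (0.234), whose promoters are printed above, and next Adgre1 and Cd93 (0.327). The farthest from any other member was Prg4, whose nearest was F5 at 0.562. All libraries share the same depth range and the same groups, so these are descriptions.

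Most members were made up largely of 1 transcript. Shares are of a gene's summed estimated transcript counts, not scaled for length. By this share, 1 annotated transcript made up 99.0% of Cd9, 98.3% of Selp, 98.2% of Icam2 and 92.1% of Adgre1 on average over 18 libraries. Cd93 and F5 have 1 transcript each in the table. Itgam was divided between transcript 203 (56.2%, range 54.8% to 58.1%) and transcript 201. Garnl3 was the most divided, with transcript 207 at 52.2% (range 43.7% to 61.3%). Its processed transcript 208 was at 4.68% ± 2.24 in isotype Tim-4low and 4.53% ± 0.754 in isotype Tim-4high cells, against 8.43% ± 2.11 and 9.07% ± 1.09 without a tumor (SD, n = 3 each), a difference that was not tested. Annotated genes overlap 7 of the members: Gm49368 and Gm38299 on the same strand as Itgam and Garnl3, and Tpr on the strand opposite Prg4, which overlaps its end. Gm16548 lies opposite both Selp and F5, across the bases between them. Whether counting used strand is not given in the sources used here, so reads in those overlaps are uncertain.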

How the data were processed

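RNA was sequenced from Tim-4low and Tim-4high peritoneal macrophages in 18 libraries, 6 groups of 3, grouped by the labels. The deposited tables hold estimated counts of genes and of transcripts, which the authors left without normalization. STAR, DESeq2 and mm10 are listed in the submitters' processing notes with no version, and what counted the reads was not stated. Of a library's gene values, 62.8% to 66.8% were whole to within 0.001. The authors' deposited tables for 2 comparisons hold p-values, FDR values and a signed fold, which is kept here as a score.

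Counts were rounded. filterByExpr kept 16609 genes and left out 6902, at most 0.0878% of a library's counts. All 10 members passed this filter, which asks for a minimum count in as many libraries as the smallest group holds. edgeR 4.0.16 (R 4.3.3, limma 3.58.1) fitted 1 model to 6 groups on TMM-scaled library sizes, tested by quasi-likelihood (12 residual degrees of freedom, common dispersion 0.0323). Genes with a Benjamini-Hochberg adjusted p under 0.05 were called. There were 9 comparisons. Alternatives were RLE factors, no filter, robust estimation, DESeq2 1.42.0, fits of only the groups compared, library number as a block, and leaving out libraries. TPM came from transcript counts and GENCODE M21 lengths. Each standard error is the absolute log2 fold change divided by the square root of the test's F statistic. It rests, as do the p-values of the main fit, on a spread per gene estimated over all 6 groups. It therefore does not measure the spread within the compared groups alone. Totals of 24530070 or more leave little counting error at the levels of the 10 members. Counting error is larger for genes and sums near or below 1 CPM.

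Whether library numbers pair samples was judged from each library's deviation from its group mean. Same-numbered Tim-4low and Tim-4high libraries of a condition correlated at 0.155 to 0.489 in 9 pairs, and other numbers at -0.432 to 0.209. Across conditions the same number gave -0.294 to 0.124. Numbers were therefore taken to pair populations within a condition and not conditions.

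The 10 members and the lists were chosen with earlier results of these data known. All 10 members were named in each comparison, with Timd4. Of the other large peritoneal macrophage genes and of the partners and relatives, called genes past 2-fold could be named, and Gata6, Itgb2, F10, Selplg, Naip2, Naip5, Naip6 and Nlrc4 in any case. Nearest profiles were limited to 3 genes for Adgre1 and Icam2 and 1 for the others, and 1 of these genes is not reported here. Markers of other cells (Chil3, Ly6c2, Pf4, Pecam1, Cdh5, Tek, Emcn, Itga2b), macrophage-defining genes and list genes called only with the block were named after their values were seen.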

Additional observations from a re-analysis of the deposited data

Results flagged for a closer look

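F5 was the 1 member whose antibody interaction, a test of the difference between the populations itself, passed in the fit to all groups. The log2 interaction, anti-Tim-4 over isotype in Tim-4low minus the same in Tim-4high cells, was 2.263 ± 0.525 (adjusted p = 0.0373, edgeR's quasi-likelihood test). F5 was at 1255, 702 and 400 CPM with anti-Tim-4 against 436, 273 and 546 CPM with isotype in Tim-4low cells. In Tim-4high cells it was at 902, 628 and 440 CPM with anti-Tim-4 against 1840, 1541 and 1658 CPM with isotype. Over the alternatives tried, the adjusted p of this interaction lay between 0.000135 and 0.14, and the call was kept in 4 of 12 omissions of 1 library. F5 was not alone in direction. All 10 members had positive interactions, that of Garnl3 being 2.27 ± 0.853 (adjusted p = 0.149, edgeR), and all 10 passed with library number as a block. With groups of 3, no outlier test was made within a group, and the omissions left out each library in turn.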

How the results depend on the processing

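The 33 calls of members kept their sign under every alternative tried, and 43 of the 57 results not called did so too. All 10 members were called lower in Tim-4low cells without a tumor under every alternative, and with isotype 9 to 10 when 1 library was left out and 10 otherwise. After anti-Tim-4 the count between populations was 0 (0 when 1 library was left out), and 1 with the block on library number (Itgam). For anti-Tim-4 in Tim-4high cells the count was 2, and it was 10 in the fit of those groups alone, 9 with DESeq2, 4 with the block on number, which does not pair conditions, 1 with robust estimation, 0 to 2 when 1 library was left out, 0 without both isotype libraries 3, and 4, 0 and 0 without both anti-Tim-4 libraries 1, 2 and 3. For the antibody interaction it was 1, and 2 in the groups alone, 8 with DESeq2, 10 with the block on number, 0 to 9 when 1 library was left out, 0 without both isotype libraries 3, and 0, 0 and 6 without both anti-Tim-4 libraries 1, 2 and 3. For the tumor it was 5 in Tim-4high cells, 3 without both no-tumor libraries 1 and 3 to 4 when 1 library was left out, and 4 to 5 in Tim-4low cells (5 with all). The sets that leave out both anti-Tim-4 libraries of a number were chosen after seeing the data. The block changed 3 further calls, of Icam2 for the tumor in Tim-4low cells (-0.717, adjusted p = 0.0576, lost), and of Selp and Naip1 for the antibody in Tim-4high cells (adjusted p = 0.0488 and 0.0185, gained), and no other. Fits with fewer samples have fewer residual degrees of freedom, and other causes were not tested. RLE factors shifted no comparison's median by more than 0.0111.

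Over all genes, counts of calls moved by over 1.5 times as follows. Between populations without a tumor 4086 genes were called, against 2472 in the groups alone. With isotype 4009 were called, and 2619 to 3485 when 1 library was left out. With anti-Tim-4 the count was 231, against 445 in the groups alone, 528 with DESeq2, 1182 with the block, 25 to 139 when 1 library was left out and 10, 2 and 10 without both libraries 1, 2 and 3. For anti-Tim-4 it was 1324 in Tim-4high cells, against 2990 alone, 2076 with DESeq2, 10 to 1163 when 1 library was left out, 210 without both isotype libraries 3, and 192 and 257 without both anti-Tim-4 libraries 2 and 3. In Tim-4low cells it was 54, against 3 alone, 282 with DESeq2, 34 with no filter, 2 to 40 when 1 library was left out, 5 without both isotype libraries 3, and 1, 7 and 29 without both anti-Tim-4 libraries 1, 2 and 3. The tumor interaction gave 587, against 1038 with DESeq2, 1858 with the block, 911 without both no-tumor libraries 1, 264 without both isotype libraries 3 and 329 to 889 when 1 library was left out. The antibody interaction gave 487, against 976 alone, 1264 with DESeq2, 2608 with the block, 9 without both isotype libraries 3, 43 and 0 without both anti-Tim-4 libraries 1 and 2 and 1 to 1418 when 1 library was left out. Leaving out transcripts under 5% of a gene set the shares of the leading Icam2, Selp and Cd9 transcripts to 100%.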

Other observations

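Several relatives of the members and other resident macrophage genes changed with the tumor. Tgm2, which encodes a transglutaminase, rose 42.7-fold in Tim-4low cells (1978 ± 246 CPM with isotype against 46.4 ± 25.8 CPM without a tumor, SD, n = 3) and 24.4-fold in Tim-4high cells (2087 ± 200 against 85.6 ± 80.5 CPM), with adjusted p-values of 3.43e-06 and 9.25e-06 (edgeR's quasi-likelihood test). Its no-tumor Tim-4high libraries 1 to 3 were at 46.6, 178 and 32.0 CPM, and without library 2 the log2 fold change was 5.73, against 4.61 with all. Cxcl13, a B cell-attracting chemokine gene, was at 19.4 ± 13.7 against 238 ± 6.02 CPM in Tim-4low and 85.5 ± 19.4 against 904 ± 192 CPM in Tim-4high cells (adjusted p = 1.6e-05 and 2.02e-05). Without isotype Tim-4low library 3 its Tim-4low log2 fold change was -4.29, against -3.61 with all libraries. Among coagulation genes, F3, which encodes tissue factor, rose in both populations from low levels (3.54 ± 0.263 against 1.02 ± 0.165 CPM in Tim-4low and 5.45 ± 0.834 against 1.27 ± 0.372 CPM in Tim-4high cells). The thrombomodulin gene Thbd fell, to 26.8 ± 1.40 against 45.6 ± 4.95 CPM in Tim-4low and 22.4 ± 3.71 against 77.9 ± 24.4 CPM in Tim-4high cells.

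For Hgf, the hepatocyte growth factor gene, the tumor's effect differed between the populations (interaction 3.39 ± 0.638 on the log2 scale, adjusted p = 0.00798, edgeR), a call kept in 12 of 12 omissions. Without no-tumor Tim-4low library 1 the value was 4.15. Hgf was at 4.72, 3.68 and 3.48 CPM with isotype against 6.48, 2.44 and 1.76 CPM without a tumor in Tim-4low cells. In Tim-4high cells it was at 1.73, 1.95 and 1.39 CPM with isotype against 25.8, 10.8 and 10.97 CPM without a tumor. Itgax, an integrin alpha chain gene related to Itgam, also differed (-3.24 ± 0.814, adjusted p = 0.0386), at 16.6 ± 6.61 CPM with isotype against 44.2 ± 19.0 CPM without a tumor in Tim-4low cells and 7.55 ± 6.76 against 2.11 ± 1.92 CPM in Tim-4high cells. Its call was kept in 5 of 12 omissions. It was lost without isotype Tim-4low library 1 or 2, isotype Tim-4high library 3, no-tumor Tim-4low library 2 or 3 or no-tumor Tim-4high library 2 or 3 (adjusted p 0.0502 to 0.132), and the value was -2.20 without isotype Tim-4high library 3 and -4.31 without no-tumor Tim-4high library 1. Adgre4, a relative of Adgre1, passed the antibody interaction (2.17 ± 0.441, adjusted p = 0.0268). That call was kept in 4 of 12 omissions and lost without library 1 or 2 of isotype or anti-Tim-4 Tim-4low cells, isotype Tim-4high library 1 or 3 or anti-Tim-4 Tim-4high library 2 or 3 (adjusted p 0.0543 to 0.0931). It averaged 39.2 ± 14.2 CPM with anti-Tim-4 against 20.8 ± 6.49 CPM with isotype in Tim-4low cells, and 28.8 ± 7.58 CPM with anti-Tim-4 against 68.4 ± 17.4 CPM with isotype in Tim-4high cells.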
